A study of Mus musculus with 21 samples.

Results

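The genes described here are the 37 genes of the mouse mitochondrial genome, taken as every gene whose symbol begins with mt- among the 54123 genes to which the deposited transcripts could be assigned. They comprise 13 mRNAs, 2 rRNAs and 22 tRNAs. RNA-Seq was performed on polymorphonuclear neutrophils (PMNs), labelled as isolated from blood, and on renal tubular epithelial cells (TECs), isolated from the kidney with beads against prominin-1, of wild-type male C57BL/6 mice aged 8 to 12 weeks. Cells were collected 24 h after surgery, which was either ischemia-reperfusion injury (IRI), with both renal pedicles clamped for 32 minutes, or a sham operation without clamps. Surgery was preceded by remote ischemic preconditioning (RIPC), in which a cuff on the hind limb was inflated and released in 3 cycles, or by a control procedure. The 21 libraries formed 8 groups. In PMNs there were 2 libraries of sham control, 3 of sham RIPC, 2 of IRI control and 3 of IRI RIPC, and in TECs there were 3, 3, 2 and 3 libraries of the same groups. The study describes the libraries of a group as biological replicates, in the same number for each group, which differs from the labels used here. Whether PMNs and TECs came from the same mice is not stated in the sources used here. The p-values measure the spread between these libraries.

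The mitochondrial genome is a circular molecule that is transcribed from both strands into long precursor RNAs. Most mRNAs and the rRNAs are separated by tRNAs, which are cut out of the precursor and so free the RNAs between them. The mRNAs encode subunits of the respiratory chain and of ATP synthase, and the rRNAs and tRNAs serve the translation of these mRNAs within the organelle. All other proteins of the mitochondrion, including those that copy and transcribe its genome, are encoded in the nucleus. Cells of the proximal tubule are rich in mitochondria and depend on oxidative phosphorylation, whereas mature neutrophils contain few mitochondria and draw their energy mainly from glycolysis.

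The genes lie so close to each other that neighbors share bases, which limits how reads can be assigned. In GRCm38, mt-Atp8 and mt-Atp6, which encode subunits of ATP synthase (complex V), overlap by 43 bases on the plus strand at chrM:7927-7969. Reads of 50 bases that begin or end there belong to both genes in part. The shared bases are printed with the start codon of mt-Atp6 and the stop codon of mt-Atp8 in capitals.
mt-Atp8 and mt-Atp6: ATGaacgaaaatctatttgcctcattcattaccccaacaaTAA
The annotated transcripts of mt-Co3, mt-Nd4 and mt-Cytb end in 1 base of a stop codon, which in mammals is completed by the poly(A) tail. Priming on that tail was the first step of library preparation. The last 30 bases of each are printed with this base in capitals, for mt-Co3 at chrM:9361-9390, for mt-Nd4 at chrM:11515-11544 and for mt-Cytb at chrM:15259-15288, all on the plus strand.
mt-Co3: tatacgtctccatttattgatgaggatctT
mt-Nd4: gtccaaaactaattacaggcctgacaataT
mt-Cytb: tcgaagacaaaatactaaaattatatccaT

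Libraries of PMNs held between 20838300 and 30458900 reads assigned to a gene, and libraries of TECs between 21442800 and 51499200. In PMNs, the libraries after sham surgery (at most 23465900 reads) were all smaller than those after IRI (at least 25616100 reads). The 10 most abundant nuclear genes of a library took between 10.6% and 39.2% of its reads. The biological coefficient of variation, which is the spread between replicates beyond counting error, was 1.66 in the fit to all libraries (edgeR). The 14 neutrophil markers summed to between 6982 and 36158 CPM (counts scaled to a common total of reads with a gene) in PMNs and to between 1.41 and 258 CPM in TECs. The 14 proximal tubule markers summed to between 2896 and 19619 CPM in TECs, but were also found in PMNs, where between 13 and 14 of them had more than 3 reads in a library. Their sum in PMNs was 1523, 3312, 5677, 6021 and 11370 CPM after sham surgery and 569, 586, 708, 905 and 914 CPM after IRI. Kap, a kidney androgen-regulated protein, made up much of this sum, with between 940 and 7028 CPM in PMNs after sham surgery, between 269 and 547 CPM in PMNs after IRI, and between 890 and 4223 CPM in TECs after sham surgery. The other 13 markers summed to between 583 and 4342 CPM in PMNs after sham surgery, to between 286 and 434 CPM in PMNs after IRI and to between 7439 and 15396 CPM in TECs after sham surgery. The 7 macrophage markers summed to between 2559 and 8682 CPM in PMNs after sham surgery, to between 692 and 1571 CPM in PMNs after IRI and to at most 31.3 CPM in TECs. Replicate 2 of the PMN sham control group stood apart, with the highest proximal tubule sum among PMNs (11370 CPM) and a sum of 4734 CPM over 9 markers of the distal tubule and collecting duct, which lay between 42.7 and 782 CPM in the other PMN libraries. Of the 4734 CPM, 4032 CPM were reads of Umod, which encodes uromodulin of the thick ascending limb. Markers of endothelium, lymphocytes, erythrocytes, platelets and fibroblasts summed to at most 218, 86.8, 808, 267 and 113 CPM in any library.

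Reads of the mitochondrial genome took a larger share of all reads in every TEC library than in any PMN library. In TECs the 37 genes held 18.8%, 27.3% and 24.8% of the reads with a gene in the sham control group, and 26.3%, 29.1% and 20.7% in sham RIPC libraries. After IRI they held 21.4% and 23.9% in the control group and 17.7%, 15.8% and 13.1% in the RIPC group. In PMNs they held 2.37% and 13.0% in the sham control group and 5.74%, 5.81% and 3.70% in sham RIPC libraries. After IRI the PMN values were 1.73% and 3.00% in the control group and 1.43%, 1.54% and 2.14% in the RIPC group. The group means were 23.6% ± 4.39 (SD, n = 3), 25.4% ± 4.27 (n = 3), 22.7% ± 1.74 (n = 2) and 15.5% ± 2.33 (n = 3) in TECs and 7.70% ± 7.55 (n = 2), 5.08% ± 1.20 (n = 3), 2.37% ± 0.900 (n = 2) and 1.70% ± 0.382 (n = 3) in PMNs, in the order sham control, sham RIPC, IRI control, IRI RIPC. The cell types came closest in replicate 2 of the PMN sham control group (13.04%) and replicate 3 of the TEC IRI RIPC group (13.07%). In the latter library the 10 most abundant nuclear genes took 33.1% of the reads, the highest value among TECs. The exact 95% binomial interval of each share was at most 0.0315 percentage points wide, which covers counting error at most, as amplified copies of a molecule were counted as separate reads. Reads of the 2 files of a library were added, and whether both hold the same molecules is not stated. If they do, the interval is too narrow for counting error as well.

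**Figure D1:**
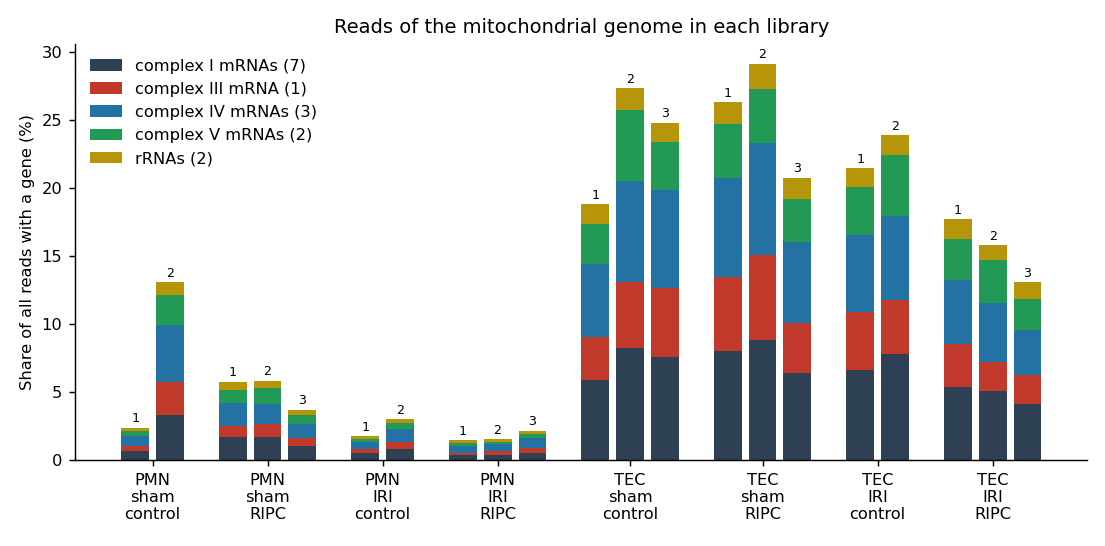
Share of reads with a gene held by mitochondrial mRNAs, grouped by the respiratory complex their products belong to, and by the rRNAs, with 1 bar per library and its replicate number on top (vertical axis in percent, tRNAs too low to show). TEC libraries reach from 13.1% to 29.1% and PMN libraries from 1.43% to 13.0%, where the highest PMN bar is replicate 2 of the sham control group.

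In TECs the largest shares were held by mt-Cytb, the mitochondrial subunit of complex III, by mt-Nd1 of complex I, by mt-Atp6 of complex V and by mt-Co1, the catalytic subunit of complex IV. mt-Cytb (ENSMUSG00000064370.1, chrM:14145-15288) held 3.22%, 4.87% and 5.03% of reads in the TEC sham control group, 5.49%, 6.21% and 3.71% in sham RIPC libraries, 4.26% and 4.01% in IRI control libraries, and 3.10%, 2.17% and 2.14% in the IRI RIPC group. In PMNs mt-Cytb held 0.387% and 2.49% in the sham control group, 0.790%, 0.967% and 0.565% in sham RIPC libraries, 0.299% and 0.530% in IRI control libraries, and 0.213%, 0.282% and 0.366% in the IRI RIPC group. The ranges of mt-Cytb in both cell types overlapped only through replicate 2 of the PMN sham control group. mt-Nd1 (ENSMUSG00000064341.1, chrM:2751-3707) held between 2.22% and 4.43% of the reads in TECs and between 0.148% and 1.59% in PMNs, without overlap. mt-Nd6 (ENSMUSG00000064368.1, chrM:13552-14070), a complex I subunit and the only mRNA on the minus strand of the annotation, held between 0.0958% and 0.177% in TECs and between 0.00652% and 0.0772% in PMNs. The libraries were taken not to keep the strand, so that reads of mt-Nd6 cannot be told apart from RNA of the plus strand at this place. This limit holds for all values of mt-Nd6 given here.

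All 13 mRNAs and both rRNAs were lower in PMNs than in TECs by the edgeR test, with all 21 libraries in the fit and adjustment over 31833 genes. Of the 37 genes, 28 passed the filter on low counts, and 17 of these were called, all lower in PMNs. In comparison, 7.01% of all genes tested were called, and 4.11% were called as lower in PMNs. The log2 fold change was -3.16 (SE 0.25, adjusted p = 2.02e-07) for mt-Nd1, -3.02 (SE 0.28, adjusted p = 8.77e-07) for mt-Nd5 of complex I, and -2.87 (SE 0.29, adjusted p = 2.05e-06) for mt-Cytb. Among the mRNAs it was smallest for mt-Nd3, a small complex I subunit, at -2.45 (SE 0.36, adjusted p = 1.43e-04 by edgeR). The remaining mRNAs lay between -2.92 (mt-Atp8, a complex V subunit) and -2.62, the value of both mt-Co1 and mt-Co2 of complex IV. The rRNAs changed least, with -2.26 (SE 0.26, adjusted p = 8.46e-06) for mt-Rnr1, the RNA of the small ribosomal subunit, and -2.24 (SE 0.26, adjusted p = 9.13e-06) for mt-Rnr2, that of the large subunit. The median over these 15 genes was -2.84, against -0.03 over all genes tested. On TMM-normalized counts, all PMN libraries lay below all TEC libraries for mt-Nd1, mt-Nd4l, mt-Nd5, mt-Atp6 and mt-Atp8, and for 6 of the 28 genes tested, while this held for 0.264% of all genes. In bulk RNA, fewer mitochondria per cell, less RNA per mitochondrion and a higher content of other RNAs cannot be told apart.

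**Figure D2:**
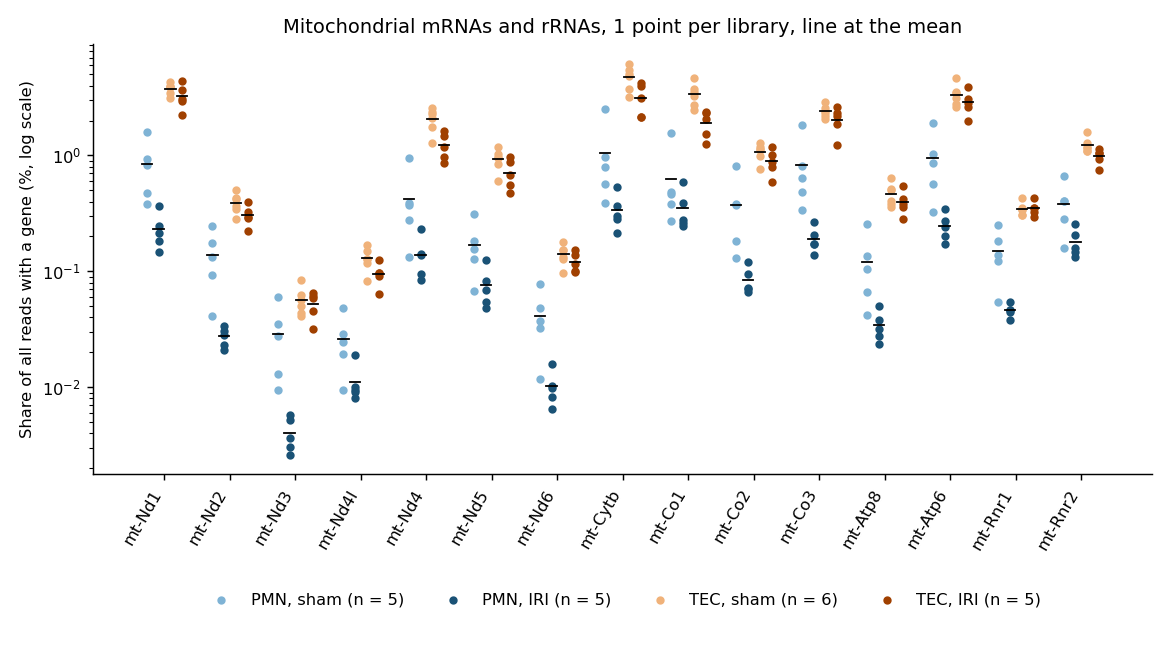
Share of reads with a gene (percent, log scale) of the 13 mRNAs, ordered by complex, and the 2 rRNAs, with 1 point per library and a line at the mean of each cell type and surgery. PMN points lie below TEC points for each gene on average, and within PMNs the points after IRI reach lower values than those after sham surgery, for mt-Nd3 from 0.00261% to 0.00577% against 0.00947% to 0.0599%.

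The level of the rRNAs was also set against that of the mRNAs. The rRNAs made up between 7.05% and 13.6% of all mitochondrial reads in PMNs and between 5.79% and 9.44% in TECs, and the ranges overlapped. With the mitochondrial mRNA reads of each library as its size, the log2 difference of PMNs against TECs was 0.62 (SE 0.23, adjusted p = 0.0365 by edgeR) for mt-Rnr2 and 0.61 (SE 0.27, adjusted p = 0.0803) for mt-Rnr1. Of the 28 mitochondrial genes tested, mt-Rnr2 alone was called on this scale, against 36.5% of all genes. In PMNs the rRNA share of mitochondrial reads was lowest (7.05%) in replicate 2 of the sham control group, the library with the most tubule marker RNA. The part of that RNA in the difference was not tested.

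Levels were compared between genes only per length, as CPM per kilobase of the annotated transcript. In TECs the order of the mean levels was mt-Atp6 (46106 ± 10500, SD, n = 11), mt-Nd1 (37043 ± 6833), mt-Cytb (35115 ± 11501) and mt-Co3, a complex IV subunit (28577 ± 5532). The level of mt-Atp6 was above that of mt-Nd1 in 11 of 11 libraries, whereas mt-Nd1 was above mt-Cytb in 7 of 11. The order of the latter pair differed with surgery, as mt-Nd1 was above mt-Cytb in 2 of 6 TEC libraries after sham surgery and in 5 of 5 after IRI. mt-Atp8, which precedes mt-Atp6 on the same precursor, had a level of 21327 ± 5003, but its transcript has 204 bases, of which 43 are shared with mt-Atp6, and its level is uncertain. The mean levels of mt-Co1 (17609 ± 6494), mt-Co2 (14514 ± 3099) and mt-Nd4 of complex I (12176 ± 4252) followed. Here mt-Co1 was above mt-Co2 in 6 of 6 TEC libraries after sham surgery (means of 21979 and 15710) and in 3 of 5 after IRI (12366 and 13078). Below these came mt-Rnr2 (7063 ± 1301), mt-Nd5 (4550 ± 1206), mt-Nd4l of complex I (3823 ± 1025), mt-Rnr1 (3645 ± 473) and mt-Nd2 of complex I (3399 ± 782), where mt-Nd4l was above mt-Rnr1 in 5 of 11 libraries. mt-Nd4l shares 7 bases with mt-Nd4 on the same strand. Whether mt-Atp8 and mt-Atp6, or mt-Nd4l and mt-Nd4, lie on separate mature RNAs was not tested. The levels within each of these pairs are those of reads assigned to annotated transcripts and cannot be read as levels of separate RNAs. The place of mt-Nd4l is also uncertain, as a pseudogene (Gm10222, described below) shares its sequence. Of the reads assigned to either in TECs, Gm10222 received between 45.7% and 58.6% after sham surgery and between 18.2% and 57.7% after IRI. mt-Nd6 (2535 ± 511) and mt-Nd3 (1570 ± 413) were the lowest, in this order in 11 of 11 libraries. In PMNs mt-Atp6 was again the highest (8717 ± 8074, n = 10), and mt-Nd3 (476 ± 543) and mt-Nd6 (498 ± 445) were the lowest, with mt-Nd6 above mt-Nd3 in 6 of 10 libraries. mt-Co1 stood above mt-Nd4 in 10 of 10 PMN libraries. It stood above mt-Co2 in 0 of 5 PMN libraries after sham surgery (means of 4091 and 5450) and in 5 of 5 after IRI (2271 and 1241). In both cell types the order of mt-Co1 and mt-Co2 is uncertain, as a pseudogene (Gm29216, described below) shares sequence with mt-Co1. Of the reads assigned to either, it received between 30.3% and 41.4% in PMNs after sham surgery and between 19.7% and 26.4% after IRI. Added to mt-Co1, these reads would raise its level, so that the 0 of 5 after sham surgery depends on the split. The order with these reads added was not tested. Although the genes of the plus strand share a precursor, their levels per length within TECs thus spanned from 1570 to 46106. Ribosomal RNAs carry only short poly(A) tails in mitochondria, and the levels are those of RNA that was primed on poly(A).

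In PMNs after IRI, each of the 15 mRNAs and rRNAs was estimated to be lower than after sham surgery, but none passed the threshold. edgeR called 0 of the 20 mitochondrial genes tested (11 had an unadjusted p-value under 0.05), against 0.472% of all 24983 genes tested (11.9% at that p-value). The DESeq2 Wald test called 5 of them as lower, mt-Nd2, mt-Nd3, mt-Co2, mt-Co3 and mt-Nd6, against 7.8% of all genes. The share of mt-Nd3 (ENSMUSG00000064360.1, chrM:9459-9806) was 0.00947% and 0.0599% in the sham control group, 0.0354%, 0.0275% and 0.0130% in sham RIPC libraries, 0.00365% and 0.00577% in IRI control libraries, and 0.00261%, 0.00526% and 0.00303% in the IRI RIPC group. All 5 libraries after IRI were below all 5 after sham surgery, with a log2 fold change of -2.64 (SE 0.61, adjusted p = 0.145 by edgeR). Among the 15 genes mt-Nd3 was the only one without overlap on TMM-normalized counts, and 3 of the 20 genes tested had none, against 1.79% of all genes that were lower without overlap. The share of mt-Nd2 (ENSMUSG00000064345.1, chrM:3914-4951) lay between 0.0409% and 0.244% after sham surgery and between 0.0211% and 0.0338% after IRI, with a log2 fold change of -2.13 (SE 0.48, adjusted p = 0.142 by edgeR). The log2 fold change was -1.92 for mt-Co3, -1.95 for mt-Co2, -1.66 for mt-Nd1 and -1.42 for mt-Cytb. For mt-Co1 it was -0.64 (SE 0.46, adjusted p = 0.581 by edgeR) and for mt-Rnr2 -0.89 (SE 0.40, adjusted p = 0.412). The median over the 15 genes was -1.62, against 0.04 over all genes tested.

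The estimates in PMNs turned on the 2 libraries of the sham control group, whose shares of the 37 genes (2.37% and 13.0%) lay further apart than those of any other group. Without replicate 1, edgeR called 12 mitochondrial genes as lower after IRI, namely the 13 mRNAs and 2 rRNAs other than mt-Co1, mt-Nd4l and mt-Nd5, and the median log2 fold change of the 15 genes was -2.06, while 1.32% of all genes were called in this fit. Without replicate 2, it called 0 mitochondrial genes (7 had an unadjusted p-value under 0.05) and 0.168% of all genes, and the median was -0.68. The mean share of the 37 genes in PMNs after sham surgery was 6.13% ± 4.13 (SD, n = 5) with and 4.40% ± 1.67 (n = 4) without replicate 2, against 1.97% ± 0.639 (n = 5) after IRI. The proximal tubule and macrophage marker sums given above were also higher in each PMN library after sham surgery than in any after IRI. Among the 5 sham libraries of PMNs, the share of the 37 genes was 2.37%, 3.70%, 5.81%, 5.74% and 13.0% in the order of rising proximal tubule marker sum. The neutrophil marker sum was 33111 CPM in the sham library with the lowest mitochondrial share and between 6982 and 12678 CPM in the other 4. The part of RNA from other cells in these shares was not tested.

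**Figure D3:**
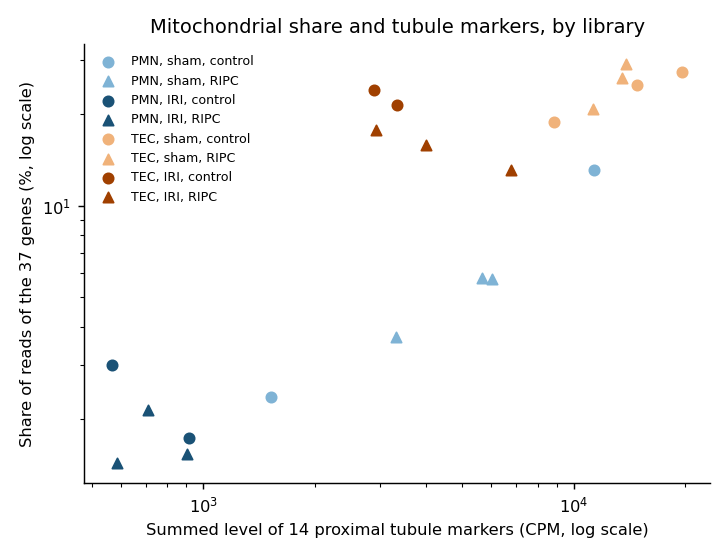
Summed level of 14 proximal tubule markers (CPM, log scale, horizontal axis) and share of reads of the 37 mitochondrial genes (percent, log scale, vertical axis), 1 point per library, with circles for control and triangles for RIPC. In PMNs the sham libraries lie to the right of the IRI libraries, from 1523 to 11370 CPM against 569 to 914 CPM, and in TECs the IRI libraries lie to the left of the sham libraries at a similar or lower mitochondrial share.

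In TECs after IRI, the 15 mRNAs and rRNAs were also estimated to be lower than after sham surgery, by less than in PMNs for 14 of them. edgeR called 0 of the 30 mitochondrial genes tested (6 had an unadjusted p-value under 0.05), against 1.23% of all 26025 genes tested (15% at that p-value), and the DESeq2 Wald test called 0, against 8.63% of all genes. The lowest adjusted p-values were those of mt-Co1 and mt-Nd4. The share of mt-Co1 (ENSMUSG00000064351.1, chrM:5328-6872) was 2.46%, 3.23% and 3.55% in the sham control group, 3.75%, 4.65% and 2.74% in sham RIPC libraries, 2.31% and 2.39% in IRI control libraries, and 2.08%, 1.25% and 1.52% in the IRI RIPC group. All 5 libraries after IRI were below all 6 after sham surgery, with a log2 fold change of -0.96 (SE 0.23, adjusted p = 0.0643 by edgeR). This was 1 of the 30 genes tested, against 3.09% of all genes that were lower without overlap on TMM-normalized counts. Without replicate 1 or without replicate 2 of the TEC IRI control group edgeR called mt-Co1 as lower (1.79% and 1.13% of all genes were called in these fits), and without replicate 3 of the TEC IRI RIPC group it called mt-Co1 and mt-Nd4 (2.94% of all genes). The log2 fold change was -0.89 for mt-Nd4 (SE 0.23, adjusted p = 0.0744 by edgeR) and -0.75 for mt-Cytb (SE 0.22, adjusted p = 0.125). It was -0.36 for mt-Nd1, -0.37 for mt-Atp6 and -0.12 for mt-Rnr1, and the share of mt-Rnr1 lay between 0.305% and 0.427% after sham surgery and between 0.296% and 0.433% after IRI. The median over the 15 genes was -0.42, against 0.15 over all genes tested. In TECs the proximal tubule markers summed to between 8881 and 19619 CPM after sham surgery and to between 2896 and 6796 CPM after IRI, and their part in the estimates was not tested.

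**Figure D4:**
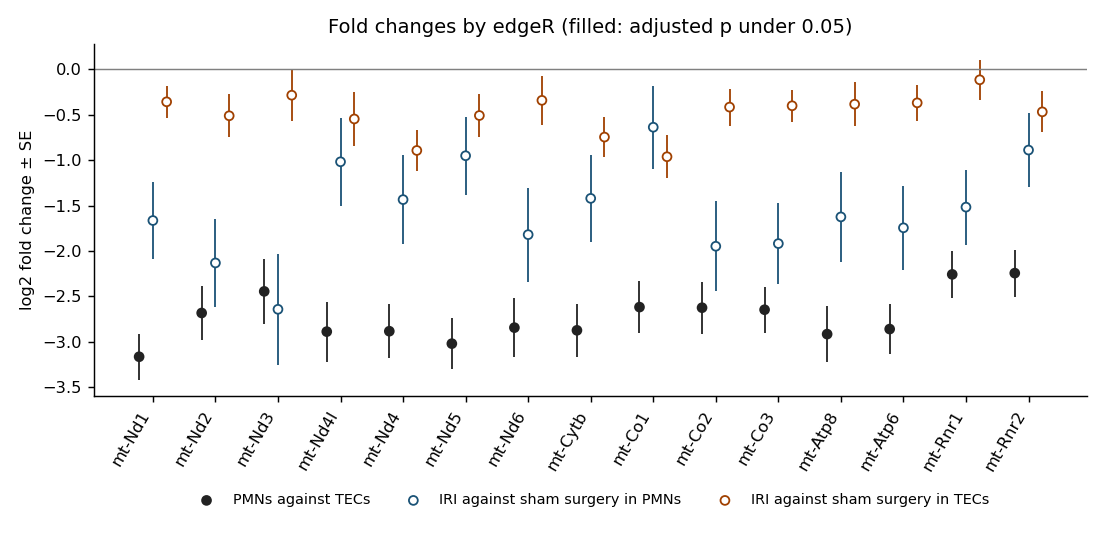
Log2 fold changes of the 13 mRNAs and 2 rRNAs by edgeR (vertical axis, bars for the standard error), for PMNs against TECs and for IRI against sham surgery in PMNs and in TECs, with filled points for an adjusted p under 0.05. The 15 estimates of PMNs against TECs lie between -3.16 and -2.24 and are all filled, and those of IRI against sham surgery are all below 0 and open.

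The effects of IRI in both cell types were compared in the fit to all 21 libraries. The difference (TECs minus PMNs) passed the threshold for 0 of the 28 mitochondrial genes tested, where 9 had an unadjusted p-value under 0.05, and for 0% of all genes (9.96% at that p-value). The DESeq2 Wald test called 2, mt-Nd3 and mt-Tm, the tRNA of methionine, against 7.52% of all genes. For mt-Nd3 the difference was 2.27 on the log2 scale (SE 0.67, adjusted p = 0.246 by edgeR), and for mt-Co1 it was -0.42 (SE 0.53, adjusted p = 1). mt-Co1 was the only gene of the 15 with a negative difference, but its sign was not stable. It was 0.043 with total reads as library size and 0.0424 without replicate 1 of the PMN sham control group. With pseudogene reads added (described below), the IRI effects on mt-Co1 were similar in both cell types. Without replicate 1 of the PMN sham control group, edgeR called 7 mitochondrial genes, each less reduced in TECs than in PMNs (mt-Atp6, mt-Co2, mt-Co3, mt-Nd1, mt-Nd2, mt-Nd3 and mt-Rnr1), against 0.411% of all genes.

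The make-up of the mitochondrial mRNA reads was described by the share of each mRNA in the reads of all 13. mt-Co1 made up 12.6% and 12.9% of them in PMNs of the sham control group and 9.38%, 8.85% and 11.6% in sham RIPC libraries. After IRI it made up 17.6% and 21.8% in the control group and 20.95%, 18.5% and 20.5% in the RIPC group, so that all 5 libraries after IRI were above all 5 after sham surgery, also apart from replicate 2 of the sham control group. In TECs the share of mt-Co1 was 14.2%, 12.5% and 15.2% in the sham control group and 15.2%, 17.1% and 14.3% in sham RIPC libraries, against 11.5% and 10.7% in IRI control libraries and 12.8%, 8.48% and 12.9% in the IRI RIPC group. PMNs after sham surgery were thus below TECs after sham surgery with the exception of replicates 1 and 2 of the PMN sham control group, and PMNs after IRI were above all TEC libraries. With the mitochondrial mRNA reads as library size, the log2 fold change of mt-Co1 after IRI was 0.82 in PMNs (SE 0.34, adjusted p = 0.330 by edgeR) and -0.39 in TECs (SE 0.17, adjusted p = 0.297). Neither passed the threshold.

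Other mRNAs made up a smaller part of these reads in PMNs after IRI than after sham surgery. mt-Co2 made up between 5.53% and 7.35% of mitochondrial mRNA reads in PMNs after sham surgery and between 4.50% and 5.38% after IRI, and mt-Nd2 between 1.90% and 3.35% and between 1.15% and 1.88%. mt-Nd3 made up between 0.396% and 0.688% after sham surgery and between 0.161% and 0.395% after IRI, and with the second of the 2 files of each library alone its groups overlapped. On the scale of mitochondrial mRNA reads, the log2 fold change in PMNs was -0.41 for mt-Co2 (adjusted p = 0.688), -0.58 for mt-Nd2 (adjusted p = 0.609) and -1.06 for mt-Nd3 (adjusted p = 0.467), none past the threshold by edgeR. Without reads of pseudogenes (described below), the groups of mt-Co1, mt-Co2, mt-Nd2 and mt-Nd3 did not overlap per mitochondrial mRNA read in PMNs. These were 4 of the 15 genes, against 6.04% of all genes. In TECs this held for mt-Nd4 alone, which made up between 7.43% and 9.45% after sham surgery and between 6.52% and 7.41% after IRI, against 3.9% of all genes. By complex, the 3 mRNAs of complex IV held 32.3% ± 2.70 (SD, n = 5) of mitochondrial mRNA reads in PMNs after sham surgery and 36.0% ± 1.67 (n = 5) after IRI. In TECs they held 30.1% ± 0.884 (n = 6) after sham surgery and 28.5% ± 0.729 (n = 5) after IRI. The 7 mRNAs of complex I held between 26.7% and 33.3% in PMNs and between 31.9% and 34.6% in TECs.

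**Figure D5:**
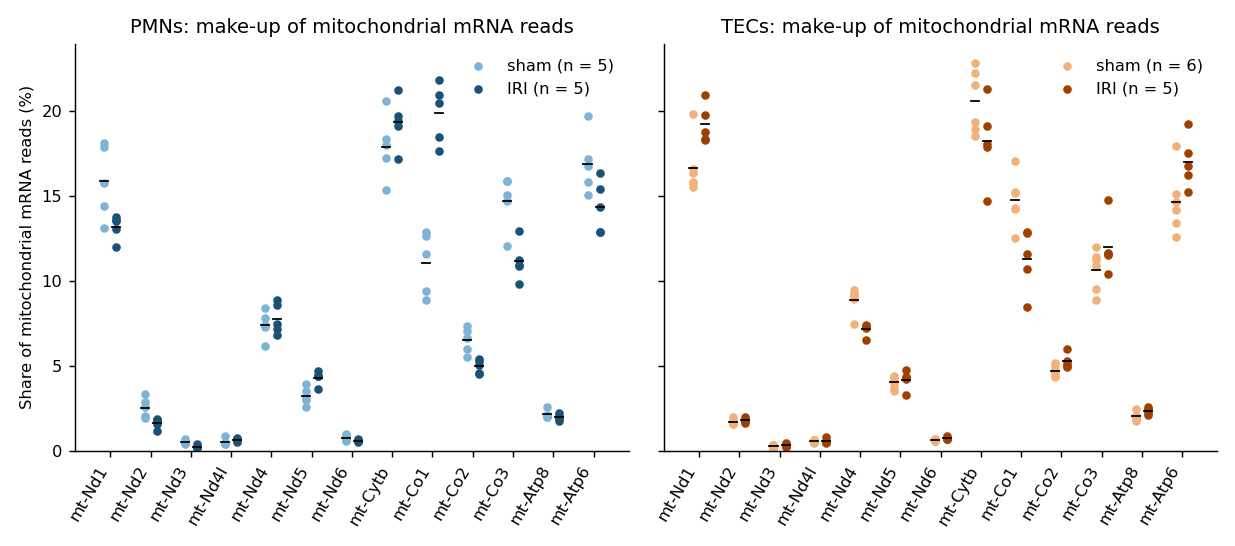
Share of each of the 13 mRNAs in the mitochondrial mRNA reads (percent, vertical axis) in PMNs and in TECs, with 1 point per library, sham surgery in the lighter and IRI in the darker color, and a line at the mean. The points of mt-Co1 after IRI lie above those after sham surgery in PMNs (17.6% to 21.8% against 8.85% to 12.9%) and mostly below them in TECs (8.48% to 12.9% against 12.5% to 17.1%).

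The values of mt-Co1 and mt-Nd4l are uncertain, since pseudogenes in the nuclear genome share their sequence. Gm29216, an unprocessed pseudogene at chr1:24615706-24616197, has 97.1% of its stretches of 50 bases in mt-Co1, which makes up 28.7% of the stretches of mt-Co1. Of the reads assigned to either gene, Gm29216 received between 30.3% and 41.4% in PMNs after sham surgery and between 19.7% and 26.4% in PMNs after IRI, and between 20.1% and 31.9% in TECs. The split of reads between both genes therefore moved with surgery in PMNs. With the reads of such pseudogenes added to the genes they match, mt-Co1 still made up a larger part of mitochondrial mRNA reads in PMNs after IRI (22.4% to 25.7%) than after sham surgery (14.2% to 17.4%), without overlap. In TECs it then made up 16.2% to 20.4% after sham surgery and 11.9% to 16.0% after IRI, also without overlap. The log2 fold change of mt-Co1 after IRI became -0.90 (adjusted p = 0.417) in PMNs and -0.92 (adjusted p = 0.0538) in TECs by edgeR. With this value mt-Co1 lay next to mt-Rnr2 (-0.89) and mt-Nd5 (-0.96) in PMNs. Gm10222, at chr1:24612407-24612700, has 100% of its stretches in mt-Nd4l (chrM:9877-10173) and received between 8.74% and 61.1% of the reads assigned to either gene. With pseudogene reads added, the share of mt-Nd4l was higher in PMNs after IRI by a mean of 0.254 points, without overlap. In TECs the difference was -0.147 points, with overlap. The pseudogenes that match mt-Atp6, mt-Co2, mt-Co3, mt-Nd3 and mt-Nd4 over most of their length received few or no reads.

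RIPC was not associated with a called change of any mitochondrial gene. After sham surgery edgeR called 0 of 20 in PMNs and 0 of 30 in TECs, against 0.004% and 0% of all genes tested, and in neither cell type did a mitochondrial gene have an unadjusted p-value under 0.05 (0 in both, against 4.62% and 4.54% of all genes). After IRI it called 0 of 20 in PMNs (0% of all genes, 0 mitochondrial genes with an unadjusted p-value under 0.05 against 2.72% of all) and 0 of 30 in TECs (0.00384% of all genes, 7 mitochondrial genes with an unadjusted p-value under 0.05 against 4.38% of all). The interaction of RIPC and surgery was called for 0 of 20 in PMNs (0% of all genes, 0 with an unadjusted p-value under 0.05 against 5.74% of all) and for 0 of 30 in TECs (0% of all genes, 3 with an unadjusted p-value under 0.05 against 7.19% of all). The DESeq2 Wald test also called 0 mitochondrial genes in each of these 6 comparisons. Of all genes it called 3.27% after sham surgery, 1.7% after IRI and 2.64% for the interaction in PMNs, and 1.65%, 2.71% and 2.31% in TECs. In TECs after IRI, the share of the 37 genes was lower in all 3 RIPC libraries (13.1% to 17.7%) than in both control libraries (21.4% and 23.9%). There the median log2 fold change of the 15 mRNAs and rRNAs was -0.71, against 0.15 over all genes tested, and the values reached from -0.94 (mt-Cytb, SE 0.31) to -0.24 (mt-Nd3, SE 0.42), with an adjusted p of at least 0.776 by edgeR. In the other 3 comparisons of RIPC with control the median of the 15 genes was -0.51 (PMNs after sham surgery), -0.40 (PMNs after IRI) and -0.02 (TECs after sham surgery), with medians of 0.00, 0.01 and 0.20 over all genes. The direction in PMNs after sham surgery turned with the control library that was left out, with a median of -1.35 without replicate 1 and of 1.43 without replicate 2 of the sham control group, and all 15 estimates were above 0 in the latter.

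The 22 tRNAs together held at most 0.00499% of the reads of a library. Mature tRNAs are short and are not polyadenylated as mRNAs are. The 3 with the highest mean share were mt-Ts1 (serine), mt-Tq (glutamine) and mt-Tm (methionine), and mt-Ta (alanine) was called beside mt-Ts1 between the cell types. Their sequences in GRCm38 are printed as transcribed, with bases that overlap a neighbor on the opposite strand in capitals (mt-Co1 for mt-Ts1, and mt-Ti, the tRNA of isoleucine, for mt-Tq). mt-Ts1 lies at chrM:6870-6938, mt-Tq at chrM:3772-3842 and mt-Ta at chrM:5018-5086, all on the minus strand, and mt-Tm at chrM:3845-3913 on the plus strand.
mt-Ts1: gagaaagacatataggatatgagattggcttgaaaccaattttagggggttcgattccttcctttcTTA
mt-Tq: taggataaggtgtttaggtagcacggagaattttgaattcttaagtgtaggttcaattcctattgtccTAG
mt-Tm: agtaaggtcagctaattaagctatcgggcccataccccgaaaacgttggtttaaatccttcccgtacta
mt-Ta: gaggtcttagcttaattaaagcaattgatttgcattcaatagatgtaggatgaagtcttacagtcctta

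Reads of mt-Ts1 numbered between 284 and 1482 in TEC libraries and between 38 and 351 in PMN libraries, with a log2 fold change of -2.41 (SE 0.53, adjusted p = 0.00667 by edgeR) in PMNs against TECs. mt-Ts1 lies against the end of mt-Co1, whose mRNA in mammals runs on through the complement of this tRNA. The libraries were taken not to keep the strand of the RNA, so that reads of mt-Ts1 and of such a continued mt-Co1 mRNA cannot be told apart. Reads of mt-Tq and mt-Ta, also on the minus strand, cannot be told apart from RNA of the plus strand either. mt-Tq had between 90 and 206 reads in TECs and between 6 and 68 in PMNs, and mt-Tm between 48 and 116 and between 0 and 48. mt-Ta had between 4 and 20 reads in TECs, and in PMNs it had 6 and 10 reads in replicates 1 and 2 of the sham RIPC group and 0 reads in the other 8 libraries. Its log2 fold change of -4.91 (SE 1.36, adjusted p = 0.0373 by edgeR) rests on these low counts. Of the 22 tRNAs, 3 had more than 3 reads in all 21 libraries, and mt-Ts2, a second tRNA of serine with 59 bases, had 0 reads in each of them. A count of 0 allows up to 3 reads, which is between 0.0583 and 0.144 CPM in these libraries.

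Nuclear genes that serve the transcription, copying and RNA processing of the mitochondrial genome were followed as a list of 41 genes, of which 38 were tested. Between PMNs and TECs, 0 were called as higher in PMNs and 4 as lower, against 4.11% of all genes called as lower, and the median log2 fold change of the list was -1.36, against -0.03 over all genes. Rexo2, which degrades short mitochondrial RNAs, was at 25.9 ± 21.3 CPM (SD, n = 10) in PMNs and 77.1 ± 32.4 CPM (n = 11) in TECs, with a log2 fold change of -1.88 (SE 0.46, adjusted p = 0.0137 by edgeR). The log2 fold change was -2.10 (adjusted p = 0.0303) for Tfb2m, a transcription factor that opens mitochondrial promoters together with the polymerase. It was -4.91 (adjusted p = 0.0323) for Mterf4, which takes part in assembly of the mitochondrial ribosome and was at a median of 0.0592 CPM in PMNs, near the limit of detection. For Slirp, which with Lrpprc binds and stabilizes mitochondrial mRNAs, it was -1.41 (adjusted p = 0.0482, all by edgeR). The mean of Slirp after sham surgery was 46.9 CPM in PMNs and 47.3 CPM in TECs, and after IRI it was 5.77 and 36.3 CPM. After IRI, 0 of the 38 genes were called in PMNs, where 1 had an unadjusted p-value under 0.05, and 0 in TECs, where 8 had, against the 0.472% and 1.23% of all genes called and the 11.9% and 15% at that p-value given above. The gene in PMNs was Slirp, named after its values were seen, at 46.9 ± 28.0 CPM (SD, n = 5) after sham surgery and 5.77 ± 2.04 CPM (n = 5) after IRI, with a log2 fold change of -2.72 (SE 0.67, adjusted p = 0.169 by edgeR). In PMNs the lowest value of Slirp after sham surgery was 25.1 CPM and the highest after IRI was 7.73 CPM. Of all genes tested in PMNs, 1.79% were lower without overlap on TMM-normalized counts. In TECs after IRI the median of the list was -0.81, against 0.15 over all genes tested. In the RIPC comparisons and interactions, 0 of the 38 genes were called by edgeR, with between 0 and 5 at an unadjusted p-value under 0.05 in each.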

How the data were processed

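Per the labels and the study's methods, RNA was reverse transcribed from its poly(A) tail with a template switch, amplified as full-length cDNA and sequenced as single-end reads of 50 bases. The study's methods state neither a step that keeps the strand nor molecular identifiers, and the libraries were taken to have neither. The authors trimmed the reads (Trim Galore 0.6.4) and quantified them with Salmon 1.0.0 against a Gencode mouse transcriptome. The deposited values used here are estimated counts per transcript without normalization, in 2 files per library whose difference is not stated. The files' TPM values and effective lengths were not used.

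Estimated counts of both files were added, summed per gene with Gencode M21 of GRCm38 (139864 of 140748 transcripts matched, and the rest held between 0.139% and 0.255% of reads), and rounded for tests. The main test was edgeR 4.0.16 (R 4.3.3) with TMM, filterByExpr by group, a quasi-likelihood F test and Benjamini-Hochberg adjusted p under 0.05 over all genes tested (24983 in PMNs, 26025 in TECs, 31833 in the fit to both), with 1 mean per group. Genes on the sex chromosomes were left out and mitochondrial genes kept. IRI was compared with sham surgery as the mean over RIPC and control. DESeq2 1.42.0 was an alternative. In simulated data with the spread of the TECs, the share of false calls was above the threshold of 0.05.

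The 37 genes, the markers (of neutrophils, macrophages, both tubule parts, endothelium, lymphocytes, erythrocytes, platelets and fibroblasts) and the list of nuclear genes were chosen with earlier results of these data known. All mitochondrial mRNAs and rRNAs are named, with the 3 highest tRNAs, tRNAs that were called, and, in each direction, up to 3 called nuclear genes of lowest adjusted p, to which Slirp was added after its values were seen. Pseudogenes were searched by shared stretches of 50 bases. No 2 libraries of a group were alike (correlation of log2 CPM over genes at most 0.905).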

Additional observations from a re-analysis of the deposited data

Results flagged for a closer look

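For 4 mRNAs, every library after IRI moved one way from the mean of its sham group in PMNs and the other way in TECs, in the share of mitochondrial mRNA reads. For mt-Co1 the mean share was 8.82 percentage points higher after IRI than after sham surgery in PMNs and the difference was -3.47 points in TECs. For mt-Nd1 the differences were -2.67 points in PMNs and 2.58 points in TECs, for mt-Co3 they were -3.55 and 1.33 points, and for mt-Co2 -1.55 and 0.557 points. The shares of 1 library sum to 100%, so that these are not independent of each other. The difference of the IRI effects (TECs minus PMNs) in edgeR, with mitochondrial mRNA reads as library size, was -1.21 on the log2 scale for mt-Co1 (SE 0.42, adjusted p = 0.329), 0.46 for mt-Nd1 (adjusted p = 1.00), 0.60 for mt-Co3 (adjusted p = 0.853) and 0.57 for mt-Co2 (adjusted p = 0.970), none past the threshold. With the reads of matching pseudogenes added, mt-Co1 kept its direction in both cell types, at 8.12 points in PMNs and -3.73 points in TECs. On that scale mt-Nd4l also moved in opposite directions, by 0.144 to 0.337 points in PMNs and by -0.302 to -0.0215 points in TECs. Shares that stand apart within groups could not be flagged, since all groups had 2 or 3 libraries.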

How the results depend on the processing

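On leaving out 1 library at a time, the log2 fold change of PMNs against TECs lay between -3.59 and -2.96 for mt-Nd1. For mt-Rnr2 it lay between -2.67 and -2.04. The 17 mitochondrial genes called between the cell types (7.01% of all genes) became 1 with mitochondrial mRNA reads as library size (36.5% of all genes). That scale moved the median of all genes to 2.63. On that scale the log2 fold change was 0.16 for mt-Nd2, 0.22 for mt-Co1, 0.18 for mt-Co2, 0.18 for mt-Co3, 0.34 for mt-Nd3, 0.61 for mt-Rnr1 and 0.62 for mt-Rnr2, where it was negative in the main test. For IRI in PMNs it was then 0.82 for mt-Co1, 0.39 for mt-Nd4l, 0.11 for mt-Nd4, 0.46 for mt-Nd5, 0.10 for mt-Cytb and 0.51 for mt-Rnr2. For IRI in TECs it was 0.21 for mt-Nd1, 0.0658 for mt-Nd2, 0.16 for mt-Co2, 0.20 for mt-Atp8, 0.21 for mt-Atp6, 0.17 for mt-Co3, 0.25 for mt-Nd3, 0.0098 for mt-Nd4l, 0.0595 for mt-Nd5, 0.23 for mt-Nd6, 0.41 for mt-Rnr1 and 0.0797 for mt-Rnr2. This scale measures change relative to the other mitochondrial mRNAs by its construction. For mt-Rnr1 and IRI in TECs it was also positive with DESeq2 size factors (0.0221), the DESeq2 Wald test (0.0221), total reads without TMM (0.0465) and at least 10 counts in every library (0.0851).

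For IRI in PMNs, the 0 called of 20 mitochondrial genes tested became 12 of 34 with no filter on low counts (963 of all genes). The count was 3 of 16 with at least 10 counts in every library (448) and 5 of 20 with the DESeq2 Wald test (1949, or 7.8%). In the fit to all 21 libraries it was 6 of 28 (145 of 31833). With each library left out, the log2 fold change of mt-Co1 lay between -1.06 and 0.34. For IRI in TECs, the 0 of 30 became 3 of 36 with no filter (1295 of all genes). The count was 1 of 30 with total reads (395 of 26025) and 2 of 30 with robust dispersion estimates (417 of 26025). With each library left out, the log2 fold change of mt-Co1 in TECs lay between -1.10 and -0.81. For the difference of the IRI effects, the 0 became 3 with no filter (786 of all genes), 1 with at least 10 counts (128), 2 with the DESeq2 Wald test (2394) and between 0 and 7 with each library left out. There mt-Co1 lay between -1.40 and 0.0424, and it was 0.043 with total reads. With no filter, mt-Cytb was the 1 of 36 genes called for RIPC against control after IRI in TECs (72 of all genes). It was also the 1 of 36 called for the interaction in TECs (85 of all genes). With no filter and with at least 10 counts, the number of all genes tested differed from the main fits. Shares of all genes for these 2 settings are not given here. For all of these counts the cause was not tested.

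The share of the 37 genes, as a group mean, moved by more than 1 SD with the reads of nuclear genes as denominator in the TEC groups (31.2% in sham control, 34.3% in sham RIPC, 29.3% in IRI control and 18.4% in IRI RIPC). With the 10 most abundant nuclear genes left out of the denominator, an alternative chosen after seeing the data, it was 6.98% in sham RIPC and 2.21% in IRI RIPC of PMNs, and 29.7% in sham RIPC, 28.7% in IRI control and 20.5% in IRI RIPC of TECs. The addition of pseudogenes matched over their own length was also chosen after seeing the data, and it changed no count of called mitochondrial genes by over 1.5 times. Groups shared replicate numbers. Deviations of same-numbered libraries from their group means correlated between -0.0234 and 0.0302 in PMNs and between -0.111 and 0.147 in TECs. Libraries with different numbers correlated between -0.0302 and 0.0296 in PMNs and between -0.128 and 0.0787 in TECs. In a group of 2 libraries the deviations are exact negatives of each other. The ranges of same and different numbers therefore mirror each other in part by construction, and their comparison cannot decide on pairing. PMNs and TECs of the same number were not compared, so that these values do not show whether they came from the same mouse. With the replicate number as a replicate block, 16 mitochondrial genes were called between PMNs and TECs and 0 in the other 9 comparisons. The shares of all genes called with this block are not given here, so that these counts cannot be set against them. Between replicates of 2 or 3 libraries with this spread, small changes could not be detected.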
